A study of Mus musculus with 6 samples.

Results

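H3K9ac was described across the peaks of lung endothelial cells isolated from WT mice, which carried no Cre recombinase per the labels. These are 3 of the 6 libraries of the series. The other 3, labelled as a knockout of cystathionine gamma-lyase (CSE) and as Cre-positive, were not used here. The labels do not give the age, sex, strain or number of the animals, nor whether the cells were cultured after isolation. They do not say that the 3 libraries came from separate mice, so the spread between them may be technical. All 17901 peaks of the deposited table were used. Each peak's count was scaled to CPM, counts scaled to a common library total over those peaks, and divided by the peak's width in kb, which gives a density in CPM per kb, and the density was averaged over the 3 libraries. Errors are SD over the 3 libraries (n = 3).

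Acetylation of lysine 9 on the tail of histone H3 is laid down mainly by the acetyltransferases GCN5 and PCAF and removed by histone deacetylases. It neutralises the positive charge of the lysine and is read by bromodomain proteins, and it marks the nucleosomes that flank active promoters and, more weakly, active enhancers. In endothelial cells, ETS family factors such as ERG, FLI1 and ETS1 act at promoters and enhancers of endothelial genes, many of which lack CpG islands, whereas genes needed in every cell usually start in a CpG island. CUT&RUN was used to map the mark: a nuclease is directed to the antibody-bound histone, and the DNA it releases is sequenced.

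The sequences just upstream of 6 starts are shown to set endothelial promoters beside those of the densest start peaks. Each is the 200 bases before the start in the RefSeq promoter table on GRCm38.p6, read 5' to 3' on the gene's own strand. The first 4 belong to endothelial genes, and the capitals mark the ETS core GGAA or its complement TTCC. They are Tie1 (chr4:118489850-118490049, minus strand), an angiopoietin pathway receptor, Erg (chr16:95459349-95459548, minus strand), an endothelial ETS factor, Robo4 (chr9:37401772-37401971, plus strand), a guidance receptor of endothelium, and Emcn (chr3:137340878-137341077, plus strand), the endothelial sialomucin endomucin. Robo4 and Emcn lie in windows under a dense peak, Tie1 has a start peak near the median density of all peaks, and the Erg window lies under no peak. The other 2 belong to the densest peaks that lay over a start, and the capitals mark CG. They are Psmd1 (chr1:86064419-86064618, plus strand), a proteasome subunit, and Cwc22 (chr2:77946357-77946556, minus strand), a splicing factor. The Psmd1 peak covers the whole printed stretch. The Cwc22 peak ends at position 77946366, so only the bases next to the start lie under it.
Tie1: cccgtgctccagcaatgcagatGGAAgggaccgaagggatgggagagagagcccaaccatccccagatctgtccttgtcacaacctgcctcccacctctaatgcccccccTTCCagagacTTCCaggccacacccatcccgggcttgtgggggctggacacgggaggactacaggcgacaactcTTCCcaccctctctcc
Erg: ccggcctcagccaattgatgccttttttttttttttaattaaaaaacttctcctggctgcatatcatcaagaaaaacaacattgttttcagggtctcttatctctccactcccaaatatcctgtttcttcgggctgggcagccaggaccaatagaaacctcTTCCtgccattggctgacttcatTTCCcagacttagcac
Robo4: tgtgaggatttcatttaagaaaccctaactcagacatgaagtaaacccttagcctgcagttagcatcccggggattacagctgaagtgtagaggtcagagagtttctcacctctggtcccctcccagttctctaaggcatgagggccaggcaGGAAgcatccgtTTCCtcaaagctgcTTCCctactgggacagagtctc
Emcn: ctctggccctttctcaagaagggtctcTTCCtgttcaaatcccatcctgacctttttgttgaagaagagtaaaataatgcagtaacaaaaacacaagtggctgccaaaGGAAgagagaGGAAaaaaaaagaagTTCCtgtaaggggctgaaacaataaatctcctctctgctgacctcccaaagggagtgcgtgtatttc
Psmd1: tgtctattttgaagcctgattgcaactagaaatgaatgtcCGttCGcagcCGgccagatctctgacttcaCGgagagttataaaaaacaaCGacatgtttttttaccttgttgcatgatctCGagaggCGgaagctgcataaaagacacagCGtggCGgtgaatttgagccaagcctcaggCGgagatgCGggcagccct
Cwc22: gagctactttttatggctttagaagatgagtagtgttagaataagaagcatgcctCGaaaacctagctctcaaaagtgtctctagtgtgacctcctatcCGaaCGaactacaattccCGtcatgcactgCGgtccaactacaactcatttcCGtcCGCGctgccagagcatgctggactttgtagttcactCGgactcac
The endothelial sequences held 4, 2, 3 and 4 ETS cores in the order printed, and 5, 2, 2 and 1 CG. Psmd1 and Cwc22 held 11 and 9 CG. A short core carries little information: GGAA or TTCC occurred in 96.0% of all 32851 promoter windows of 300 bases.

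The libraries differed in depth. WT replicates 1 to 3 had 676056, 313610 and 610922 reads in peaks, so that 1 read was worth 1.48, 3.19 and 1.64 CPM. The median count per peak was 28, 13 and 25, and 13.6%, 38.3% and 15.1% of peaks had fewer than 10 reads. The median density was 52.3, 52.1 and 52.4 CPM per kb. Every library was scaled to the same total over the same peaks, so these close medians are no measure of agreement. The ranking of peaks differed between libraries: of the 1790 densest peaks in each library, 47.0% to 53.7% were shared by a pair of libraries. The median coefficient of variation of a peak over the 3 libraries was 25.4%, and the counting error expected from the read counts had a median of 23.4%. These 2 figures are unlike measures, because the SD of 3 values more often falls below the true spread than above it. Their closeness therefore does not show that the spread is counting error. Chi-square over the peaks, divided by its degrees of freedom, was 1.87 to 2.01 for the pairs of libraries, more than sampling noise gives, and all 3 were counted. With 3 libraries, an exact paired sign-flip test cannot go below p = 0.25, two-sided, so no test was made and the values are given per library. CUT&RUN on a cell population cannot tell fewer acetylated cells from less acetylation per cell.

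All 5 endothelial marker genes had a peak, and 4 of them had a peak over a start. Among all protein-coding genes, 45.1% and 24.3% did. A peak was counted as over a start when its centre lay no farther from the start than its own middle lies from its edges. Cdh5, which encodes the junction protein VE-cadherin, had 1 peak (chr8:104101591-104103392, GRCm38, in intron 1 and reaching the start), with densities of 129.8, 155.8 and 128.2 CPM per kb, mean 138 ± 15.5. Each library lay far above the median of all peaks, and the mean density stood at percentile 98.7 among genes ranked by their densest peak. Pecam1, the adhesion molecule CD31, had 3 peaks, and the one over the start (chr11:106713399-106715405) had densities of 101.0, 98.6 and 114.2 CPM per kb. A second Pecam1 peak in intron 13, 40452 bp downstream of the start, had 93.8 ± 17.7 CPM per kb, while the one at −7251 bp, upstream of the start, had 30.2 ± 4.38. The libraries of the start peak and of the peak in intron 13 overlap, and the upstream peak was below both in every library.

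Erg had no peak over its start. Its densest peak (chr16:95457336-95458151, intron 2) had its centre 1605 bp downstream and densities of 147.0, 133.0 and 120.5 CPM per kb, close to those of Cdh5. Its other peaks, also in intron 2, had 79.3 ± 4.01 CPM per kb at 19240 bp downstream and 40.2 ± 22.6 at 37729 bp. The density of the 3 Erg peaks thus fell with distance in each of replicates 1 to 3, although replicate 2 alone spans from 133.0 to 15.7. Ets1, a related ETS factor, had 5 peaks, all inside the gene. The peak over its start had 103.4, 113.9 and 85.2 CPM per kb. A narrow peak 13977 bp downstream had 70.0, 181.1 and 67.1, so its mean of 106 ± 65.0 rests on replicate 2. Tie1 stood apart from the other markers: its only peak (chr4:118489279-118489988, over the start) had 52.2, 67.5 and 46.2 CPM per kb, mean 55.3 ± 11, which is near the median of all peaks. Summed over its peaks, Tie1 had 39.2 ± 7.78 CPM, against 248 ± 28.0 for Cdh5, 307 ± 66.2 for Ets1, 308 ± 15.4 for Pecam1 and 313 ± 19.0 for Erg. The last 3 differ by less than their spread. Cth, which encodes CSE, had no peak in the deposited table.

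**Figure D1:**
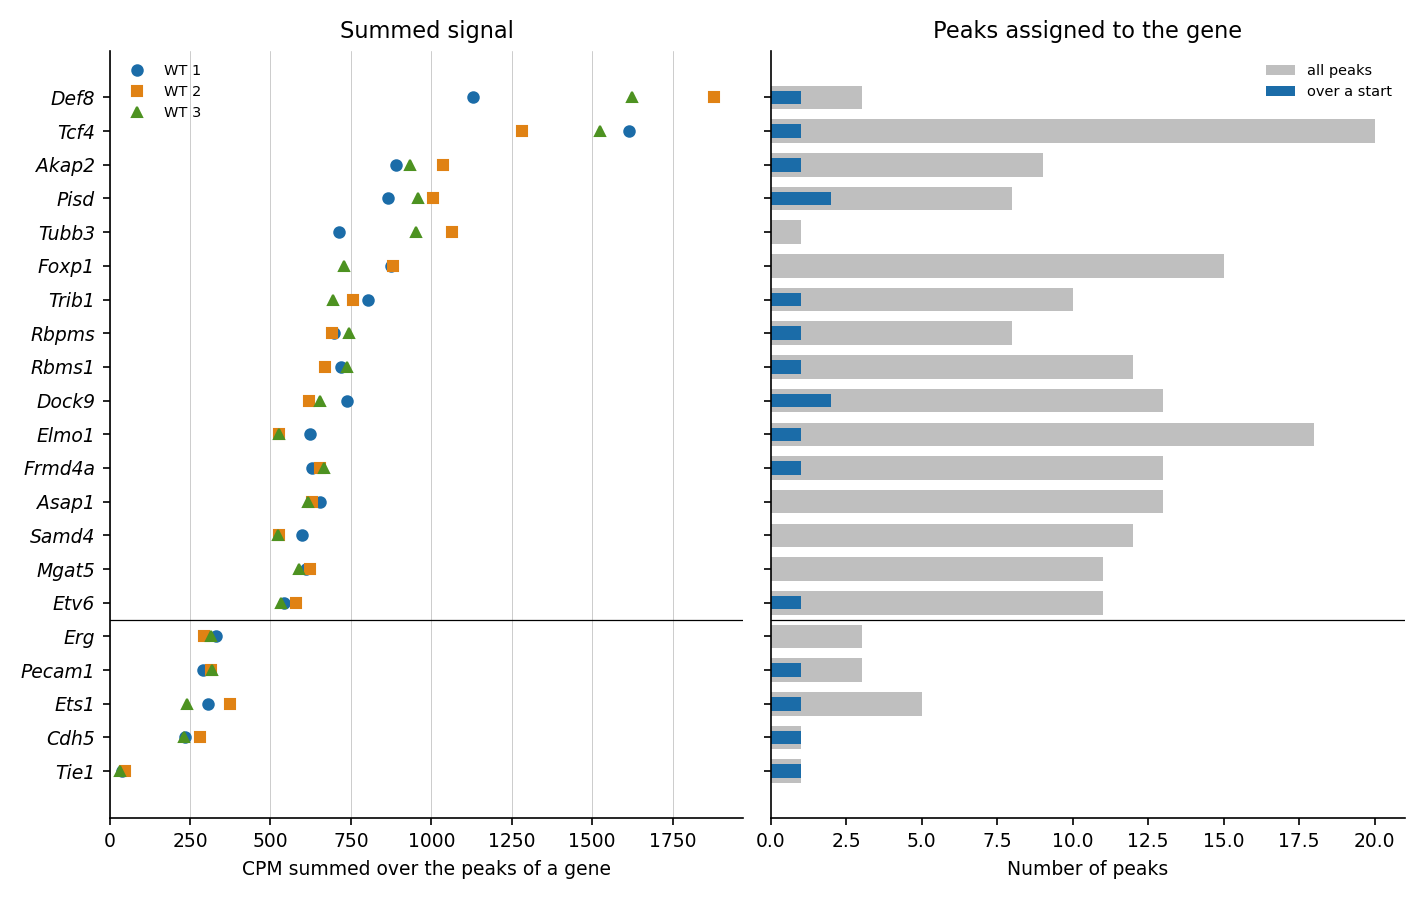
Left, CPM summed over the peaks of a gene in each WT library; right, number of peaks assigned to the gene (grey) and number over a start (blue), for the genes with the highest summed CPM or most peaks (above the line) and the 5 endothelial markers (below it). Tcf4 has 20 peaks and Tubb3 reaches its rank with 1 peak, and the markers sit between 39.2 (Tie1) and 313 (Erg) CPM.

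Peaks over a start made up 32.1% of peaks (5745) but held 48.5% ± 0.025 of the counts. They were wider than the others (median 1207 against 651 bp) and denser (median 61.0 ± 0.296 against 48.2 ± 0.201 CPM per kb), in each library. The deposited annotation classifies a peak by its centre, and in its terms intron peaks were the most numerous class (9166 peaks, 51.2% ± 0.214 of counts). Intergenic peaks followed in number (3959, 14.3% ± 0.096), then promoter-TSS peaks (2887, 22.0% ± 0.207). The promoter-TSS class had the highest median density of the annotated classes, at 60.5, 58.7 and 59.6 CPM per kb. Intergenic peaks had 45.7, 45.6 and 46.1, and the ratio of both medians was 1.30 ± 0.020. Exon, 5' UTR, transcription termination site and non-coding peaks lay between them, with medians from 54.9 ± 0.946 to 56.9 ± 0.823 CPM per kb, and their order was not the same in every library. The 95 peaks in 3' UTRs had 46.5 ± 1.80.

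The intron class was not uniform. Peaks in intron 1 had a median density of 56.6 ± 0.510 CPM per kb and held 37.1% ± 0.402 of counts. Peaks in later introns had 45.6 ± 0.689, which matches the level of intergenic peaks. Of the 5647 peaks in intron 1, 2019 lay over a start, and these had the highest median of the groups compared here, 62.7 ± 0.445 CPM per kb. The 3628 intron 1 peaks away from a start still had 53.0 ± 0.520, above later introns in each library. Only 44.2% of the peaks over a start carried the promoter-TSS label, and 36.4% carried the intron label, so counting by class alone understates the share of signal at starts.

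**Figure D2:**
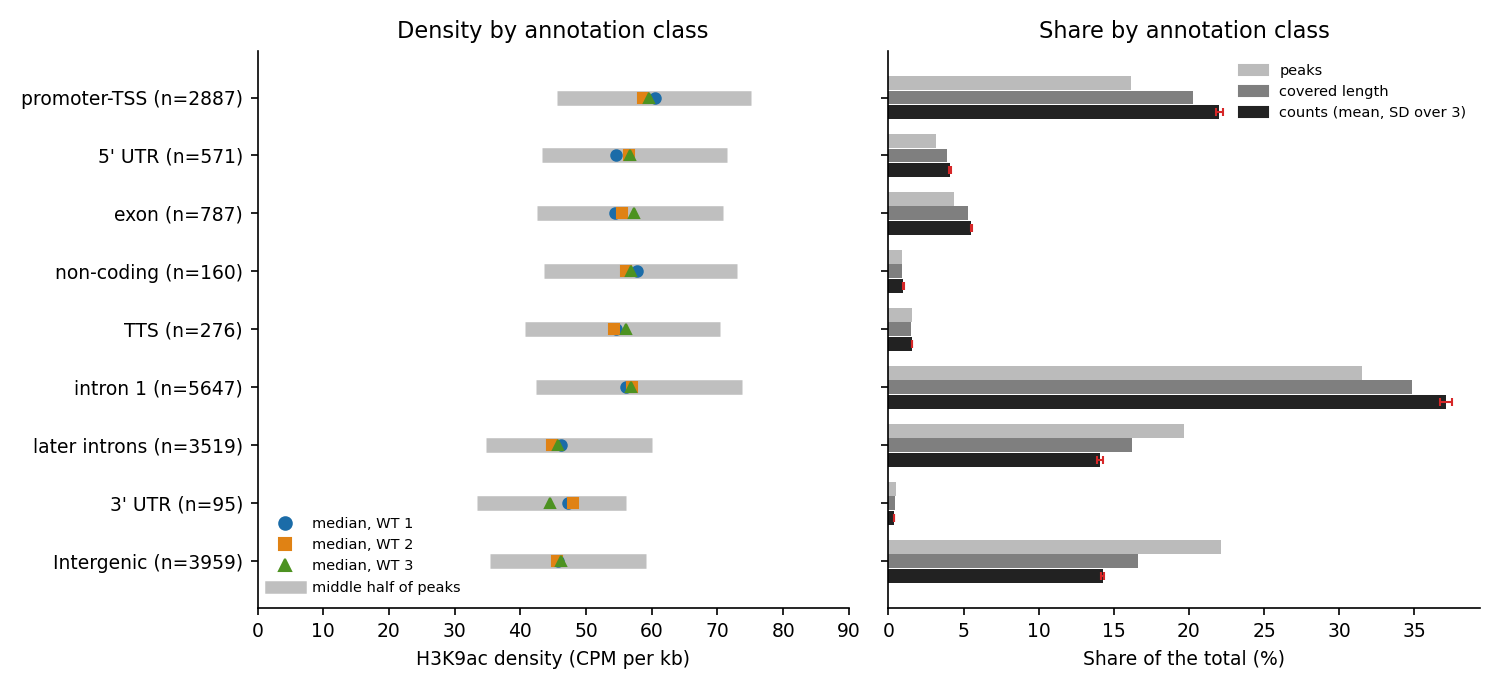
Left, median H3K9ac density (CPM per kb) of each annotation class in each WT library, over a grey bar for the range that the central part of the peaks spans (lower to upper quartile); right, share of peaks, covered length and counts per class (counts as mean and SD over 3 libraries). The promoter-TSS class lies at 58.7 to 60.5 and the intergenic class at 45.6 to 46.1 in the 3 libraries, and later introns lie with the latter.

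The signal was displaced downstream of starts. Of the 8021 peaks whose centre lay within 1 kb of a start, 82.0% had the centre on the downstream side, with a median position of +276 bp. Among peaks over a start, 79.1% were centred downstream, at a median of +194 bp (quartiles 30 and 369). Median density rose from 57.0 ± 0.458 CPM per kb for centres 0 to 250 bp downstream to 64.9 ± 2.16 for centres 1000 to 1500 bp downstream. The share of peaks among the densest 10% was 10.5% in the first of these bins and 20.9% in the second. Peaks centred 1000 to 1500 bp downstream were also wider, with a median of 1623 bp against 1018 bp. Among peaks of 1000 to 1500 bp in width, the median density was 59.6 ± 1.39 for centres at 0 to 250 bp, 66.6 ± 1.58 at 500 to 750 bp and 61.6 ± 2.57 at 1000 to 2000 bp. At a given width, then, no steady rise with distance was seen over this range.

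Distal peaks were numerous but weaker. Centres farther than 10 kb from a start accounted for 7369 peaks (41.2%), of which 61.2% lay on the downstream side of the nearest start. Median density was 45.5 ± 0.707 CPM per kb at 10 to 50 kb downstream and 45.6 ± 0.129 at the same distance upstream. Beyond 100 kb it was 42.7 ± 0.486 downstream and 43.9 ± 1.44 upstream, and 3.55% and 4.33% of those peaks were among the densest 10%. At 10 to 50 kb the order of the sides differed between libraries. Beyond 100 kb the upstream median was the higher in every library, at 42.5, 45.4 and 43.7 against 42.2, 42.9 and 43.1. The gap between those means was smaller than the upstream SD.

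**Figure D3:**
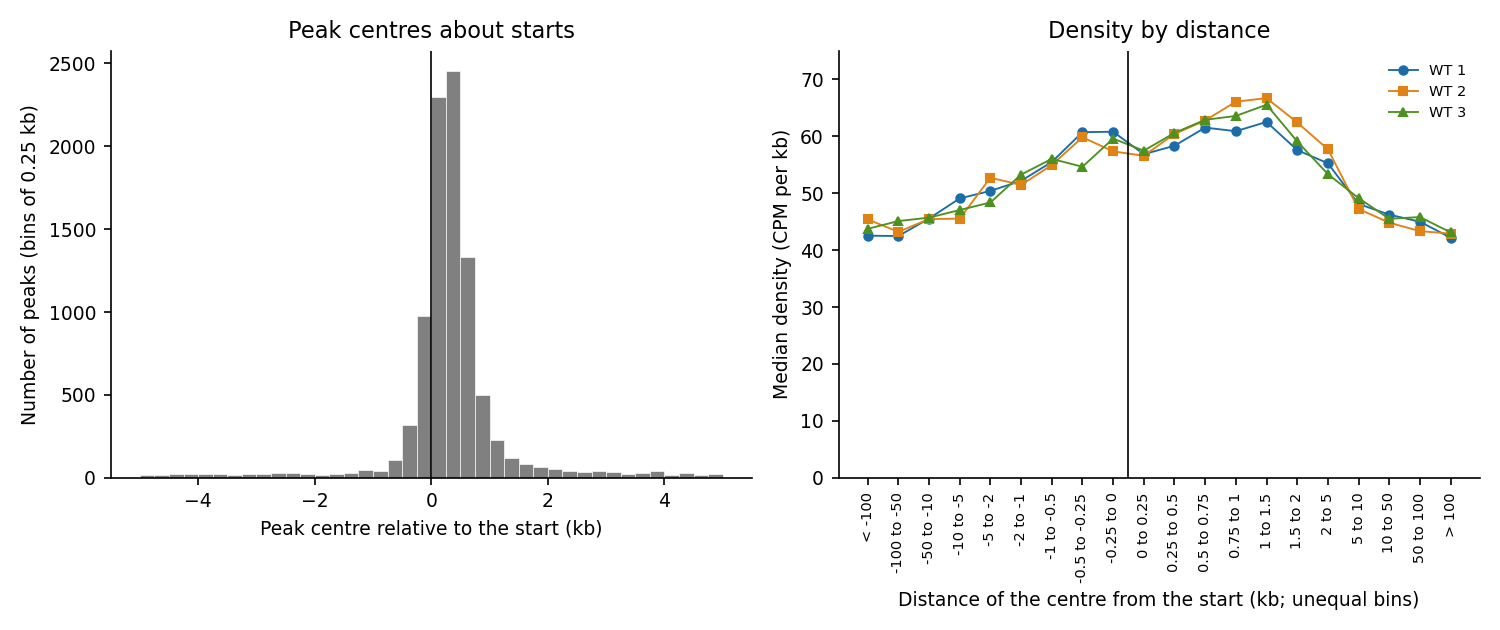
Left, number of peaks by position of the centre relative to the annotated start (kb, bins of 0.25 kb); right, median density (CPM per kb) per distance bin and WT library. Centres pile up just downstream of the start, and density is highest 1 to 1.5 kb downstream (64.9) and lowest beyond 100 kb downstream (42.7).

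Wider peaks were denser, as well as longer. Median peak width was 816 bp (498 to 1228 bp from lower to upper quartile), and the widest 5% exceeded 1928 bp. Median density rose from 42.4 ± 0.831 CPM per kb in peaks of 200 to 300 bp to 57.4 ± 0.326 at 1000 to 1500 bp and 74.8 ± 2.31 in the 25 peaks of 3 kb or more. Across all peaks, Spearman's rho of width and density was 0.293 ± 0.024. Peaks are not independent replicates and share their library and peak caller, and the value is a description. It depends on the narrow peaks with few reads: among the 14544 peaks with a mean count of 10 or more, rho fell to 0.126, and the 206 peaks of 200 to 300 bp that pass had a median of 87.6 ± 2.56 CPM per kb, since only dense narrow peaks reach that count. From 500 bp upwards density rose with width under both settings. Peaks of 2 kb or more, 737 in number, held 12.7% ± 0.199 of counts, and those of 3 kb or more held 0.631% ± 0.010.

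**Figure D4:**
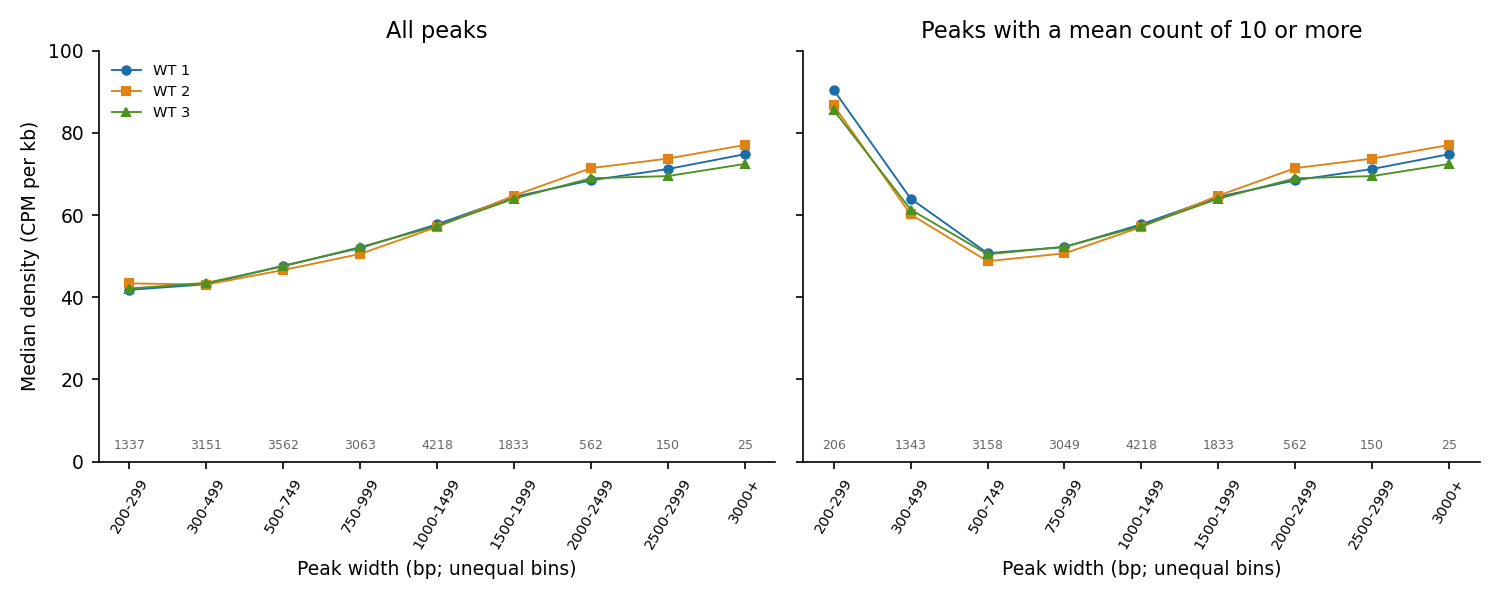
Median density (CPM per kb) by peak width in each WT library, for all peaks (left) and for peaks with a mean count of 10 or more (right); the number of peaks in each bin stands above the axis. The 200 to 300 bp bin moves from 42.4 to 87.6 between the panels, while bins of 1000 bp and above are the same.

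The densities of the widest peaks varied. The widest covered 6564 bp in intron 8 of Pfkp, which encodes a phosphofructokinase of glycolysis (chr13:6606160-6612724), and had densities of 74.8, 53.4 and 63.6 CPM per kb. Nr1d1, the clock repressor REV-ERB alpha, had a peak of 3821 bp over its start with 92.9, 93.5 and 87.8 CPM per kb. Ppp1r15b, a regulatory subunit of the phosphatase that acts on eIF2 alpha, had one of 3551 bp with 99.1, 83.5 and 90.8. Piezo1, a mechanically gated ion channel of endothelium, had one of 3418 bp in intron 1 with 82.7, 84.9 and 78.1. By contrast the 3376 bp peak in intron 2 of Nos1ap had 26.7, 26.4 and 29.1 CPM per kb, which is below the median of all peaks in every library. The peaks of Nr1d1, Ppp1r15b and Piezo1 were above that median in every library.

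The signal was spread over many peaks. The densest 10% of peaks held 23.0% ± 0.593 of counts, and the densest 1% held 3.44% ± 0.142. The 10% with most CPM, which favours wide peaks, held 29.7% ± 0.489. Between the 10th and 90th percentile, mean density ran from 30.7 to 86.9 CPM per kb, a ratio of 2.83. The range was wider at the top, where the densest peak reached 686. The deposited table leaves out peaks of low summed signal, so this range and these shares hold only for the peaks kept.

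The very densest peaks were of another kind than the rest. Of the 20 densest, 11 were annotated as repeats, 5 as CpG islands, and 2 lay over a start. The first, intergenic and assigned to 4930517M08Rik, sits on a simple repeat of the unit CACTC (chr17:4626170-4626588), with densities of 721.9, 678.9 and 657.9 CPM per kb. Peaks on MuLV-int, the internal part of murine leukaemia virus proviruses, numbered 6 in all, with a median density of 410 ± 73.3 CPM per kb and 0.320% ± 0.068 of counts. Of these, 3 neighbour each other on chr8 near the genes Tubb3 and Def8, and the densest of them (chr8:123429220-123429897) had 439.2, 753.6 and 577.9. Replicate 1 was the lowest at all 3 of these peaks. A peak of 250 bp on an L1 element in Abca17 had 295.8, 752.5 and 772.6 CPM per kb, so its mean of 607 ± 270 hides a gap between replicate 1 and the others.

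These repeat peaks do not stand for repeats in general. The 2110 peaks annotated as repeats had a median density of 45.7 ± 2.88 CPM per kb, below that of all peaks. L1 peaks (347) had 43.2 ± 5.93 and simple repeats (402) had 43.6 ± 4.39. The sources used here do not say how reads that fit several copies of a repeat were counted, so a single copy cannot be told apart from its relatives. The genes named for such peaks are the nearest ones and need not be the source of the signal.

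The 20 densest also held peaks outside repeats. Psmd1, a proteasome subunit, had a peak over its start (chr1:86064386-86065748) with 236.8, 250.5 and 210.3 CPM per kb. Vcp, an unfoldase of protein quality control, had 224.3, 211.8 and 198.6, and Sem1, a small proteasome subunit, had 191.6, 205.1 and 207.6. Ppp2ca, the catalytic subunit of protein phosphatase 2A, was the densest outside repeats with 245.5, 306.7 and 218.0. Xbp1, a transcription factor of the unfolded protein response, had 193.4, 222.0 and 174.7. Klf6, a zinc finger factor induced by injury, had 197.2, 215.8 and 223.8. The non-coding RNA Neat1, the scaffold of paraspeckles, had 233.9, 204.4 and 279.8. The densest peak of Malat1, its neighbour in the genome, was not among these 20: it ranked 58, with 167.2, 110.9 and 207.4. Of the 20 densest peaks by mean, 19 were within the top 100 of every library. The exception was the narrow peak assigned to Slc22a13b, with 321.6, 277.3 and 120.4 CPM per kb.

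Peaks over a start continued this list. After Psmd1 and Cwc22 (200 ± 25.6 CPM per kb), the densest were Tmem39a (192 ± 9.34), Ino80d (190 ± 24.4), Ino80 (189 ± 22.4), Hspa8 (187 ± 46.2) and Cpsf2 (186 ± 32.2). Ino80 and Ino80d encode subunits of a chromatin remodelling complex, Hspa8 the constitutive HSC70 chaperone and Cpsf2 a factor of pre-mRNA cleavage. None of these differ from their neighbours in rank beyond their spread. Within annotation classes, the densest exon peaks were those of Nr2f2, the venous fate factor COUP-TFII (204.9, 190.0 and 158.4 CPM per kb), and Robo4 (126.3, 180.3 and 133.5). The densest 5' UTR peak was that of Brd2, a bromodomain reader of acetylated histones (154.1, 171.7 and 151.6). The densest 3' UTR peak belonged to S1pr1, the endothelial receptor for sphingosine 1-phosphate (133.7, 172.9 and 98.6).

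The 10 densest peaks far from starts and outside repeats were assigned to genes of various kinds. A peak 10619 bp from the start of Nr2f2 (chr7:70349659-70350289) had 145.6, 146.8 and 145.5 CPM per kb, and its SD of 0.72 was the smallest of the 10. A peak 11230 bp into Fli1, an ETS factor of endothelium and blood, had 122.6, 209.5 and 102.9 and was led by replicate 2. The nearest genes of the other 8 were Slc22a13b, Zfp958, 1700054M17Rik, Ankdd1a, Cdk17, Tnc, Arhgef2 and Gm5535, with means from 145 to 240.

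Most genes had few peaks. The peaks were assigned to 11191 gene symbols, of which 7604 (67.9%) had 1 peak, and 9869 of the 21900 protein-coding genes of the RefSeq table (45.1%) had any. The 381 genes with 5 or more peaks held 11.8% ± 0.071 of counts. When only peaks within 50 kb of a start were assigned, 152 genes had 5 or more, and their share was 4.87%. Genes with more peaks were longer: median gene length was 20.5 kb with 1 peak and 234 kb with 10 or more. The median density of their peaks was not higher, at 54.9 CPM per kb for genes with 1 peak and 49.7 for genes with 10 or more. Of those peaks, 52.4% and 3.46% were over a start, so the 2 sets differ in kind. The densest peak of a gene had a median of 54.9 and 96.1 CPM per kb, the latter being the highest of many peaks. A peak over a start was present in 8 of the 22 genes with 10 or more peaks (36.4%) and in 52.4% of genes with 1 peak.

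Tcf4, an E-protein transcription factor, had the most peaks, 20, of which 19 lay inside the gene and 1 over a start. Its summed signal was 1614, 1282 and 1526 CPM, which is 78.9 CPM per covered kb, and only 3 of its peaks lay within 50 kb of the start. Elmo1, a regulator of Rac in cell migration, had 18 peaks, Foxp1, a forkhead repressor, had 15, and Dock9, Frmd4a and Asap1 had 13 each. Rbms1 and Samd4, both coding for RNA-binding proteins, had 12, and Mgat5, a glycosyltransferase, and Etv6, an ETS repressor, had 11. For Dock9, an activator of Cdc42, all 13 peaks lay within 50 kb of a start. These 10 genes had between 46.3 (Elmo1) and 78.9 (Tcf4) CPM per covered kb, against a median of 55.1 for protein-coding genes with a peak.

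Ranked by summed CPM, the first gene was Def8 with 1129, 1878 and 1624 CPM, where 2 of 3 peaks were on MuLV-int, and Tubb3 owed its place to its only peak, also on MuLV-int. Leaving those aside, Tcf4 was followed by Akap2 (953 ± 75.6 CPM), a kinase anchoring protein, Pisd (943 ± 71.0), a mitochondrial phospholipid enzyme, Foxp1 (828 ± 85.9) and Trib1 (750 ± 54), a pseudokinase. Rbpms, Rbms1 and Dock9 completed the 10 genes with most summed CPM. The values of Akap2 and Pisd overlap across libraries.

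Of 54 genes listed for endothelial identity, 48 had a peak and 20 had a peak over a start. This is 88.9% with a peak, against 45.1% of all protein-coding genes, and 37.0% over a start, against 24.3%. Listed genes held 173 ± 2.67 CPM each, against 41.1 ± 0.037 for all protein-coding genes, and in every library the list was above 170. Among genes with a peak, 37.5% of the list had 3 or more peaks, against 13.3% of all protein-coding genes. Within 50 kb of a start, 16 of these 18 still had 3 or more. The share of all protein-coding genes under that limit was not computed. The densest peak of a listed gene ranked at a median percentile of 79.3 ± 4.10 per library, against 51.1 ± 0.209 for protein-coding genes.

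Much of this signal lay away from starts. Of the 135 peaks of the list, 14.8% were over a start and 60% were more than 10 kb away, against 32.1% and 41.2% of all peaks. Those over a start had a median density of 94.1 CPM per kb, against 60.7 for all peaks over a start. Those elsewhere had 55.3, against 47.9. Arhgap31, a GTPase activating protein for Cdc42 and Rac, led the list with 553, 615 and 535 CPM in 6 peaks, followed by Etv6 (551 ± 25.6). Emcn, with 534, 373 and 455 CPM, had its densest peak in an intron with its centre 881 bp downstream of the start, at 164.7, 109.3 and 135.5 CPM per kb. Kdr, the receptor VEGFR2, had 10 peaks and 482, 501 and 386 CPM. S1pr1 had 11 peaks and 543, 494 and 558 CPM, and only 2 of them lay inside its short gene. Fli1 (373 ± 64.3) and Heg1 (368 ± 40.4), a junctional receptor, came after these. No peak was found for Mcam, Vwf, Plvap, Nrp1, Foxf1 and Tcf15. Of these, Vwf encodes von Willebrand factor, and Foxf1 is a forkhead factor of lung vessels.

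Genes of endothelial subtypes were less evenly covered. Lymphatic genes had a peak in 9 of 12 (75%), venous genes in 8 of 12 (66.7%), lung capillary genes in 14 of 26 (53.8%) and arterial genes in 7 of 16 (43.8%). Among all protein-coding genes 45.1% had one, so the arterial list did not stand out. Signal per listed gene was 122 ± 6.59 CPM for the lymphatic, 95.6 ± 2.43 for the capillary, 93.6 ± 5.30 for the venous and 44.4 ± 0.559 for the arterial list. All protein-coding genes had 41.1 ± 0.037, close to the arterial value. The capillary and venous values overlap, and the arterial list was lowest in every library. The venous factor Nr2f2 had 429, 399 and 370 CPM in 4 peaks, and the semaphorin receptor gene Nrp2, also counted as venous, had 444, 376 and 386 in 6. Of the arterial list, Efnb2, an ephrin ligand, had 272, 252 and 267 CPM, while Gja4, Gja5, Hey2, Bmx and Cxcl12 had no peak. The lymphatic marker Lyve1 had 192, 233 and 185 CPM, and Reln and Ccl21a had no peak.

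Genes of other lung cell types had little signal. Signal per listed gene was 23.2 ± 1.62 CPM for alveolar epithelium, 19.4 ± 1.17 for fibroblasts, 16.3 ± 1.25 for airway epithelium and 10.5 ± 0.489 for lymphocytes. It was 4.43 ± 1.17 for smooth muscle and pericytes, 3.83 ± 1.75 for genes common to leukocytes and 2.73 ± 0.906 for macrophages and neutrophils. Genes of erythroid cells and platelets had 5.00 ± 1.44, and genes of neurons and other unrelated lineages 15.8 ± 0.831, where the 5 peaks nearest to Apoa1 made up most of the sum. All of these are below the value for protein-coding genes, 41.1. Across the 7 lists, no fibroblast, smooth muscle, leukocyte, macrophage or lymphocyte gene had a peak over a start, and alveolar epithelium had 2 (Etv5 and Krt18) and airway epithelium 1 (Rfx2). A peak at any place was present in 8 of 24 alveolar, 3 of 16 airway and 5 of 20 fibroblast genes. It was present in 2 of 18 smooth muscle, 2 of 15 leukocyte, 3 of 21 macrophage and 3 of 21 lymphocyte genes. The share of all protein-coding genes was 45.1% with a peak at any place and 24.3% with one over a start. Defining genes differed: Sftpc, Ager, Ptprc, Cd68, Acta2, Pdgfra and Col1a2 had no peak in the table. Abca3, Epcam, Cdh1, Col1a1, Csf1r and Klrb1c had at least 1. No mesothelial gene of 9 had a peak. Scgb1a1, the club cell secretoglobin, had 4 assigned peaks with 192, 172 and 154 CPM, none of them inside the gene or over its start.

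**Figure D5:**
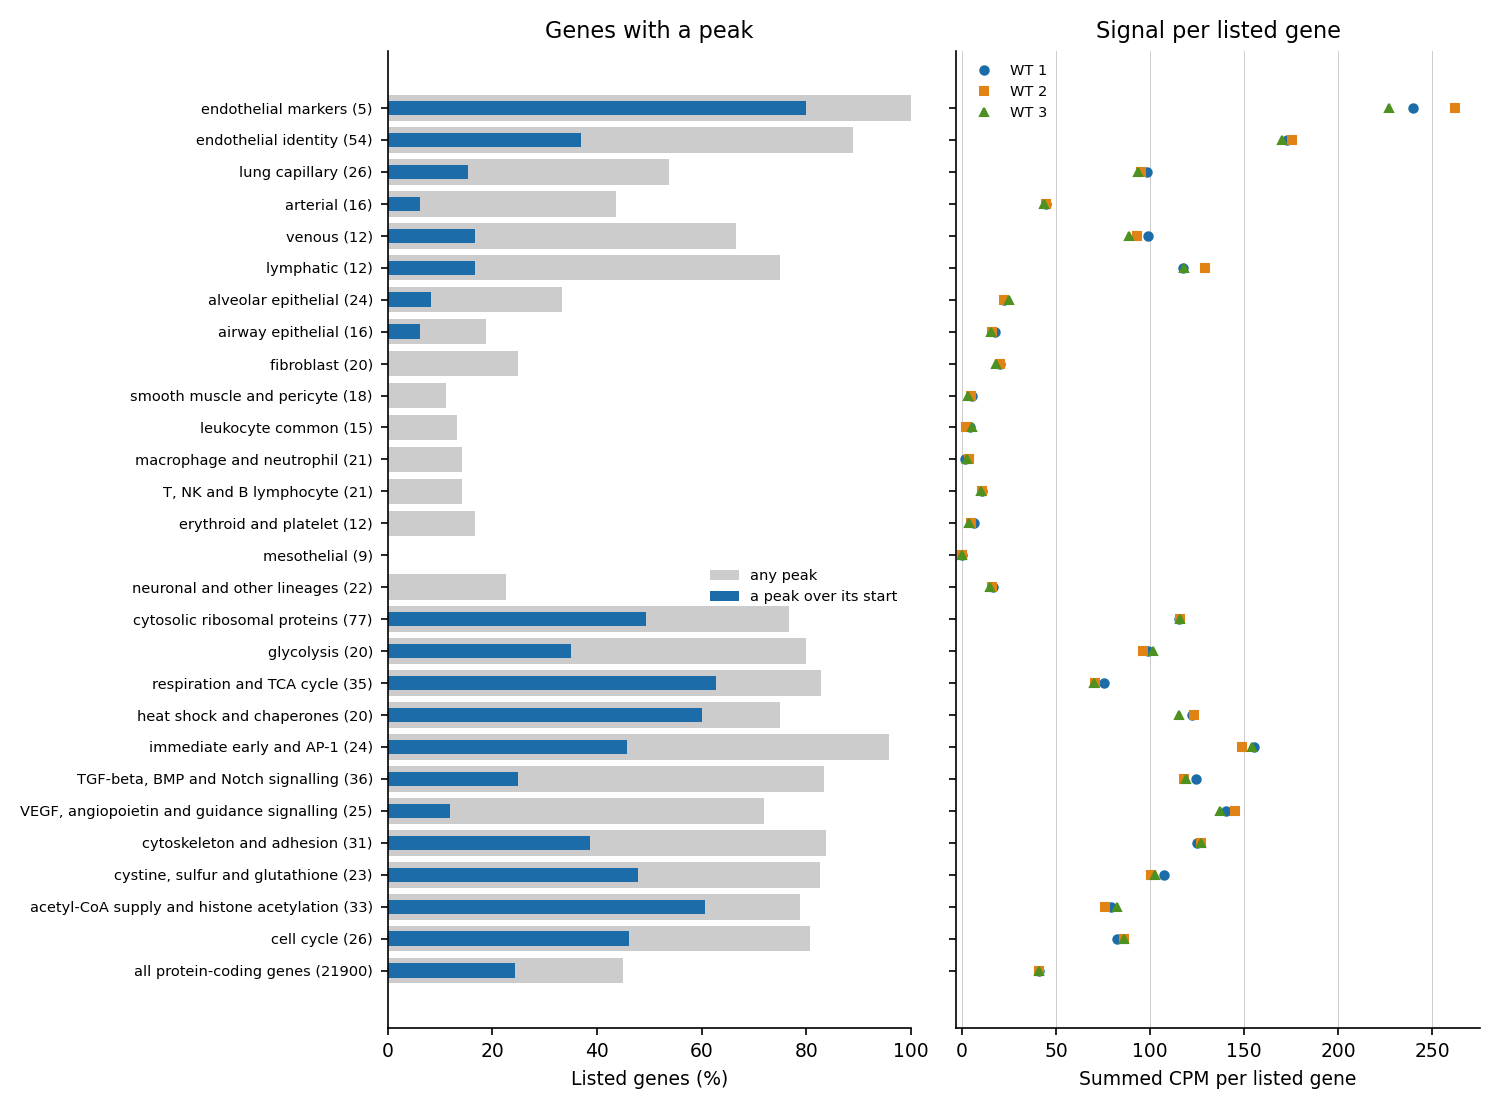
Left, percent of listed genes with any peak (grey) and with a peak over a start (blue); right, summed CPM per listed gene in each WT library. Numbers in parentheses are genes listed. The endothelial identity list reaches 173 CPM per gene, and lists of other lung cell types stay at or below 23.2, under the 41.1 of all protein-coding genes.

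Ribosomal protein genes carried their signal differently from the endothelial list. Cytosolic ribosomal protein genes had a peak in 59 of 77 (76.6%), and 38 (49.4% of those listed) had it over a start. Among all protein-coding genes the shares were 45.1% and 24.3%. Their median summed signal, 152 ± 3.66 CPM, was close to the 150 ± 10.7 of endothelial identity genes with a peak. Per covered kb, however, they had a median of 99.8 CPM against 67.3, and 3.39% of them had 3 or more peaks against 37.5%. Of their 64 peaks, 59.4% were over a start and 6.25% were more than 10 kb away. Rpl4, a protein of the large subunit, had 315, 411 and 264 CPM in 1 peak over its start. Rps6, a protein of the small subunit, had 311, 268 and 239, also in 1 peak. For 18 ribosomal protein genes, among them Rpl3 and Rpl32, the table held no peak. These genes have many processed copies. Whether reads shared with those copies were lost or moved by the authors' counting was not tested.

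Other lists of function varied in coverage. Of all protein-coding genes, 45.1% had a peak and 24.3% had one over a start, with 41.1 CPM per gene. Immediate early genes had a peak in 23 of 24 (95.8%), with 153 ± 3.56 CPM per listed gene. Dusp1, a MAP kinase phosphatase, had 509, 615 and 552 CPM in 7 peaks, and Jun and Fos, the subunits of AP-1, had 389 ± 42.2 and 233 ± 10.2. Genes of VEGF, angiopoietin and guidance signalling had a peak in 18 of 25 (72%), with 141 ± 4.00 CPM per listed gene. Only 3 (12%) had one over a start, a smaller share than among all protein-coding genes. Angpt2, the ligand that opposes Tie2 signalling, had 550, 494 and 434 CPM in 5 peaks. Epha2, an ephrin receptor, had 321, 389 and 350 in 2. For Vegfa and Vegfc no peak was present.

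Genes of TGF-beta, BMP and Notch signalling had a peak in 30 of 36 (83.3%, against 45.1% of all protein-coding genes), with 121 ± 3.51 CPM per listed gene. Smad3, a signal transducer, had 486 ± 59.7 CPM and Smad6, an inhibitor of BMP signalling, had 455 ± 35.2, each in 7 peaks, none over a start. The co-receptor gene Eng had 271 ± 32.0 CPM in 1 peak, of which the density was 145.8, 115.0 and 129.8 CPM per kb. Cytoskeleton and adhesion genes had a peak in 26 of 31 (83.9%), with 126 ± 1.04 CPM per listed gene. Vim, which encodes vimentin, had 399, 360 and 332 CPM in 1 peak over its start. Heat shock and chaperone genes had a peak in 15 of 20 (75%), with 120 ± 4.29 CPM per listed gene. They were led by Serpinh1, the collagen chaperone HSP47, with 382, 443 and 380.

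The lists nearest to the study's question were also covered. For comparison, 45.1% of all protein-coding genes had a peak and 24.3% had one over a start. Genes of cystine, sulfur and glutathione metabolism had a peak in 19 of 23 (82.6%) and over a start in 11 (47.8%), with 104 ± 3.66 CPM per listed gene. Txnrd1, thioredoxin reductase, led with 321, 303 and 411 CPM in 1 peak over its start, and Nfe2l2, the antioxidant factor NRF2, had 349, 265 and 300 in 3 peaks. Besides Cth, the genes Cbs, Tst and Cdo1 had no peak. Genes of acetyl-CoA supply and histone acetylation had a peak in 26 of 33 (78.8%) and over a start in 20 (60.6%), with 79.0 ± 3.17 CPM per listed gene. Brd2 had 306, 341 and 301 CPM, and Ep300, the acetyltransferase p300, had 228, 172 and 278. Glycolysis genes had 99 ± 2.60 CPM per listed gene with peaks in 16 of 20, respiration and TCA cycle genes 72.3 ± 2.95 with peaks in 29 of 35, and cell cycle genes 84.9 ± 2.21 with peaks in 21 of 26. In Pfkp, which led glycolysis with 486 ± 50.4 CPM, neither of 2 peaks was over a start. All of these values exceed the 41.1 of protein-coding genes in every library.

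The letters of the promoters separated starts with a peak from starts without one more clearly than they separated strong from weak peaks. RefSeq promoter windows reach from 250 bases before to 50 after a start, and 8617 of 11191 gene symbols had one. Windows under a peak (8061) had a median of 23 CG and 62.0% GC, and windows under no peak (24790) had 5 CG and 50% GC. The share of windows under a peak was 2.06% with 0 to 4 CG, 31.4% with 10 to 14 and 59.0% with 20 to 29. Median density at the windows under a peak ran only from 52.8 to 62.6 CPM per kb over the same bins. The lowest and highest parts of an even split into 3 by density had medians of 22 and 24 CG.

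The 13 windows of endothelial identity genes under a peak had a median of 9 CG, 60.3% GC and a median density of 94.9 CPM per kb. The 51 ribosomal windows under a peak had 22 CG, 59% GC and 104 CPM per kb. All 38 endothelial windows, with or without a peak, had a median of 16 CG and 62.8% GC, above the 7 CG and 52.7% of all windows. Of the endothelial sequences printed above, those of Robo4 and Emcn belong to windows that meet a dense peak (147 ± 29.3 and 137 ± 27.7 CPM per kb). The Emcn peak begins downstream of the start, so none of its printed bases lie under it. CCGGAAG, the longer ETS motif, was searched on both strands, and it contains a CG. It occurred in 8.86% of all windows, 22.5% of windows under a peak, 22 of 51 ribosomal windows (43.1%) and 0 of 13 endothelial ones. TATAAA occurred in 13.6% of all windows and 5.56% of windows under a peak, and the GC box GGGCGG in 35.7% and 67.1%. These are matches of letters within 300 bases.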

How the data were processed

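H3K9ac CUT&RUN libraries of WT mouse lung endothelial cells were used, 3 in number. Tools named by the submitters' processing notes, with no order or settings, are STAR 2.7.11a, Trimmomatic 0.39, featureCounts, Picard 3.1.1 and DESeq2 1.36.0. The sources used here name no peak caller. In the table that the authors deposited, each row is a peak with its raw read count in each library. It held 17901 rows of identifiers that reach 23867. No row had RPKM values summing to less than 167 over the 6 libraries. A gene without a peak is a gene without a row in this table. The peak set is shared by all 6 libraries. The deposited RPKM columns, per the file headers, served only to infer library totals.

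Counts were scaled to CPM over the rows, which held 93.0% to 94.6% of the totals the authors' RPKM values imply, and divided by the peak's width. Python 3.11.15, pandas 2.3.3, numpy 2.4.6, scipy 1.17.1 and matplotlib 3.10.9 were used, and the steps were tested on simulated data. Genes, classes, distances and repeats are those of the deposited annotation. A gene's level is the sum over its peaks, a list's level the sum over its members divided by the number listed. The notes name mm39, but the start implied by a peak's centre and distance lay within 100 bp of a RefSeq promoter start on GRCm38.p6 for 96.6% of peaks with such an entry. Coordinates are therefore given on GRCm38.

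The 27 gene lists and the peaks and genes described were chosen with earlier results of these data known. Named were the 5 markers, the 20 densest and 10 widest peaks, the 10 densest peaks over 10 kb from a start, the densest peaks of each class and over starts, the 10 genes with most CPM and with most peaks, up to 6 genes of each list, and the defining genes of other cell types. The densest peaks outside repeats and over starts, and further list members, were picked after their values were seen. Alternatives were the implied totals, pooled counts, a mean count of 10 or more, leaving out repeats, autosomes alone, other limits and each library left out. The values of some list members are not reported here.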

Additional observations from a re-analysis of the deposited data

How the results depend on the processing

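Of 91 alternative values for the 10 summary results, 57 moved by less than 1 SD over the libraries and 34 moved by more. None changed sign, which only Spearman's rho could have done. Leaving out each library in turn moved none by more than 1 SD. A mean of 3 values cannot move by 1 SD when 1 of them is left out. These values are therefore among the 57 by arithmetic, and only the densest 10% were ranked anew. The share in promoter-TSS peaks ran from 21.9% to 22.1%, and that within 1 kb of a start from 59.7% to 59.9%. The share in genes with 5 or more peaks ran from 11.8% to 11.9%, and that in peaks of 3 kb or more from 0.625% to 0.634%. The ratio of promoter-TSS over intergenic density ran from 1.29 to 1.31. The median density of all peaks (52.3 CPM per kb) ran from 52.2 to 52.3 without 1 library, and was 48.9 with the implied totals, 52.1 with pooled counts, 59.2 with a mean count of 10 or more, 57.9 without repeats and 53.1 on autosomes, CPM being rescaled to the peaks that remained. The share of counts in promoter-TSS peaks (22.0%) was 20.6% with the implied totals, 22.7% with a mean count of 10 or more and 24% without repeats. In the same order the share within 1 kb of a start (59.8%) was 56.0%, 61.8% and 63.6%, and it was 65.6% within 2 kb and 48.5% for peaks over a start. The share in peaks of 3 kb or more (0.631%) was 0.591%, 0.659% and 0.687%, 0.619% on autosomes, and 12.7% with a limit of 2 kb. The share in genes with 5 or more peaks (11.8%) was 11.1%, 8.16% and 8.96%, 12.0% on autosomes and 4.87% within 50 kb. The share in the densest 10% (23.0%) was 21.5% with the implied totals, 20.4% with a mean count of 10 or more and 29.7% when ranked by CPM. The ratio of promoter-TSS over intergenic density (1.30) was 1.20 with a mean count of 10 or more, 1.28 without repeats and 1.25 from means. Spearman's rho of width and density (0.293) was 0.341 with pooled counts, 0.126 with a mean count of 10 or more and 0.847 with CPM in place of density, which contains the width. For endothelial identity genes the median percentile (79.3) was 85.4 with pooled counts, and the median CPM (150) was 169 with a mean count of 10 or more.

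No paired analysis was possible because the libraries of 1 group entered, and no result comes from a test. With a median of 13 reads per peak in replicate 2, the order of single peaks is imprecise: a pair of libraries shared 47.0% to 53.7% of their densest 10%. Intervals were not given, and reads without molecular identifiers are not independent molecules. The table leaves out peaks of low summed signal, so the absence of a peak is no measure of absent acetylation. Peaks go to the nearest start, which need not be the gene they act on.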

Other observations

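The X chromosome had fewer and weaker peaks than the autosomes. It had 288 peaks, which is 29.8 per 100 protein-coding genes, against 85.2 over all autosomes and 59.3 to 109 on single autosomes. A peak over a start was found for 10.1% of its protein-coding genes, against 20.8% to 28.0% on single autosomes. Its median density was 41.2 CPM per kb, below the autosomal range of 48.5 to 54.4. The sex of the animals is not in the labels, and fewer acetylated copies and less acetylation per copy cannot be told apart. Ddx3x, an RNA helicase gene of the X chromosome, nevertheless had the tenth widest peak of the table, 3281 bp over intron 1, with 52.3, 44.7 and 73.3 CPM per kb.

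Among repeats, young L1Md elements (151 peaks) had a median density of 44.1 ± 13.7 CPM per kb, an SD far larger than the 0.926 of other L1 elements (43.0, 196 peaks).

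The CpG island label of the deposited annotation made little difference at starts. Peaks over a start with that label (978) had a median of 62.9 ± 0.518 CPM per kb, and those without it (4767) had 60.6 ± 0.381. The label describes the peak's centre, so a peak over an island can lack it.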
